A study of Rattus norvegicus with 12 samples.

Results

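The 10 genes described here carry the signal of Toll-like receptors to the transcription factor NF-kappaB and to the NLRP3 inflammasome: Tlr2, Tlr4, Cd14, Ly96, Myd88, Nfkb1, Nfkbia, Tnfaip3, Nlrp3 and Casp1. They were taken from the deposited expression table by gene symbol, and each symbol stood on 1 of its 33801 rows. RNA was measured in bone within a diameter of 4 mm around mini-implants at the maxillary first molar site of rats labelled WT. The study set out to see how cyclic loading and the implant material alter expression in this bone. Each of the 4 groups has 3 libraries. In loaded Nb3 alloy the implant was of Zr58Cu25Al14Nb3 and was loaded cyclically for 2 weeks, and in non-loaded Nb3 alloy an implant of the same alloy was left static. In loaded cpTi a titanium implant was loaded for the same time, and in non-loaded cpTi a titanium implant was left static. An implant is thus present in every group, and bone without one was not measured. The labels do not state that replicates came from different rats, so p-values measure only how far these samples spread, which may be technical.

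Toll-like receptors recognise molecules of microbes and of damaged cells. On macrophages, neutrophils and many stromal cells, TLR2 binds bacterial lipoproteins, and TLR4 binds lipopolysaccharide that CD14 passes on to its partner MD-2, the product of Ly96. The adaptor MyD88 then recruits kinases that lead to the IKK complex, which marks the inhibitor IkappaB alpha, the product of Nfkbia, for destruction and so frees NF-kappaB dimers built from subunits such as that encoded by Nfkb1. NF-kappaB switches on cytokine and chemokine genes and also Nfkbia and Tnfaip3, whose product A20 shuts the signal down, so both genes form negative feedback. NLRP3 is a sensor that assembles with the adaptor ASC into an inflammasome, where caspase-1, the product of Casp1, is activated and cuts the precursors of interleukin 1 beta and interleukin 18. In the bone around teeth and implants these pathways are known for the response to bacteria and for their part in osteoclast formation.

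Promoter sequences of Nfkbia, Tnfaip3, Nfkb1 and Cd14 are shown first, and their part in the results was not tested. RefSeq promoter windows in the build GRCr8, from 250 bases before to 50 bases after the annotated start, matched 9 of the 10 genes, all but Ly96. A strict form of the kappaB site, GGGA then any base then TTTCC, was searched on both strands and stood in 3 of the 9 windows, against 0.362% of all 33469 windows of the table. Capitals below mark that motif as read along the gene's strand. It begins 31 bases before the start of Nfkbia, 67 bases before that of Tnfaip3 and 3 bases after that of Nfkb1. The Cd14 window, shown because Cd14 differed between groups, holds none. A looser form, GGG then any 5 bases then CC, which takes in every match of the strict form, stood in 6 of the 9 windows and in 47.3% of all windows. GGAAGT, the core of sites for ETS factors, stood in 6 of the 9 and in 22.6% of all. TGANTCA, a loose form of the AP-1 site that allows any middle base, stood in 2 of the 9 and in 7.33% of all. The match was TGACTCA in Tnfaip3 and TGAATCA in Myd88. These matches describe letters in the windows only. Each window lies on the minus strand of chr6:78597023-78597322 (Nfkbia), chr1:15543930-15544229 (Tnfaip3), chr2:226805413-226805712 (Nfkb1) or chr18:28611109-28611408 (Cd14).
Nfkbia: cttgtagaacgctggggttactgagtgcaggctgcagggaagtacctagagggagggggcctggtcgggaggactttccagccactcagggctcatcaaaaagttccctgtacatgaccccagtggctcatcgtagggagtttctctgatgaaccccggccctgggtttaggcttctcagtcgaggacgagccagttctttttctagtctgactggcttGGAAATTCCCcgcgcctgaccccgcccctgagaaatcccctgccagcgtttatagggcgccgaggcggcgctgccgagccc
Tnfaip3: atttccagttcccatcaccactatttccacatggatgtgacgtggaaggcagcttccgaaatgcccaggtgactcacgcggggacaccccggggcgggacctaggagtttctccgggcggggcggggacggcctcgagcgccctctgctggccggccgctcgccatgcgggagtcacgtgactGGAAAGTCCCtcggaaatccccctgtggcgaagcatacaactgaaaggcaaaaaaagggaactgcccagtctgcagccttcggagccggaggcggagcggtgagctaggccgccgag
Nfkb1: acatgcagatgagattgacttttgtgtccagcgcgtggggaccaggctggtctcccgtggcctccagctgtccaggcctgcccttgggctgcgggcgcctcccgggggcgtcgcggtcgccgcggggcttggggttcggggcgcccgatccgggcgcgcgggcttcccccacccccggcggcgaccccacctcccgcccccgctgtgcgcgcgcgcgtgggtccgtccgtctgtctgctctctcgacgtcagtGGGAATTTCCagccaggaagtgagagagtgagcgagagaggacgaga
Cd14: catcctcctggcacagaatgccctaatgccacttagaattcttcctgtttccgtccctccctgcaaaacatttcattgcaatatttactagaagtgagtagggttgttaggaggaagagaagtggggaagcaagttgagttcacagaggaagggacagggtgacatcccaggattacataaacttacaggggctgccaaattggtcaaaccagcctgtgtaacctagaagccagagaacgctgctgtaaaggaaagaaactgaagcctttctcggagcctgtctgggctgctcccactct

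Levels are given in FPKM, fragments per kilobase of gene, scaled by the authors for library depth. Libraries held 12.9 to 22.3 M reads on genes, and every one of the 10 genes had at least 90 reads in each library. The libraries of loaded Nb3 alloy were unlike the other 9. Across tested genes they correlated with the others at 0.731 to 0.866, while the others correlated among themselves at 0.932 to 0.969. Mitochondrial genes took 11.3% to 24.3% of their reads, highest in replicate 2, against 4.31% to 6.86% in the other 9 libraries. Every comparison that uses the loaded Nb3-alloy group therefore rests on libraries that differ broadly from the rest. The labelled tissue matched its markers: the 7 osteoblast and osteocyte genes listed summed to between 3008 and 16965 FPKM in every library. Differences were tested with limma on log2(FPKM + 1), which understates the change of low genes, in 15268 genes that reached 1 FPKM in at least 3 libraries. All 10 genes passed that filter. A gene was called at an adjusted p under 0.05. Limma shared 1 estimate of spread per gene over all 12 libraries, so an SE or interval does not reflect the compared groups alone.

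Loading beside Nb3 alloy came with higher levels of 3 of the 10 genes: Cd14, the lipopolysaccharide co-receptor, and the feedback inhibitors Nfkbia and Tnfaip3. Group means were 62.9 ± 50.5 FPKM in loaded Nb3 alloy against 13.9 ± 2.76 FPKM in non-loaded Nb3 alloy for Cd14 (SD, n = 3 each). They were 91.1 ± 44.0 against 30.2 ± 4.97 FPKM for Nfkbia and 13.3 ± 10.6 against 3.47 ± 0.442 FPKM for Tnfaip3, in the same groups. The receptors, the adaptor, the subunit gene Nfkb1, Nlrp3 and Casp1 did not pass the test, and none of the 10 was called lower. In this comparison limma called 45.8% of all tested genes, 20.7% higher and 25.2% lower, so a share of 3 in 10 called higher is not far from that of genes at large. In bulk bone, fewer cells of a type and less RNA per cell cannot be told apart.

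**Figure D1:**
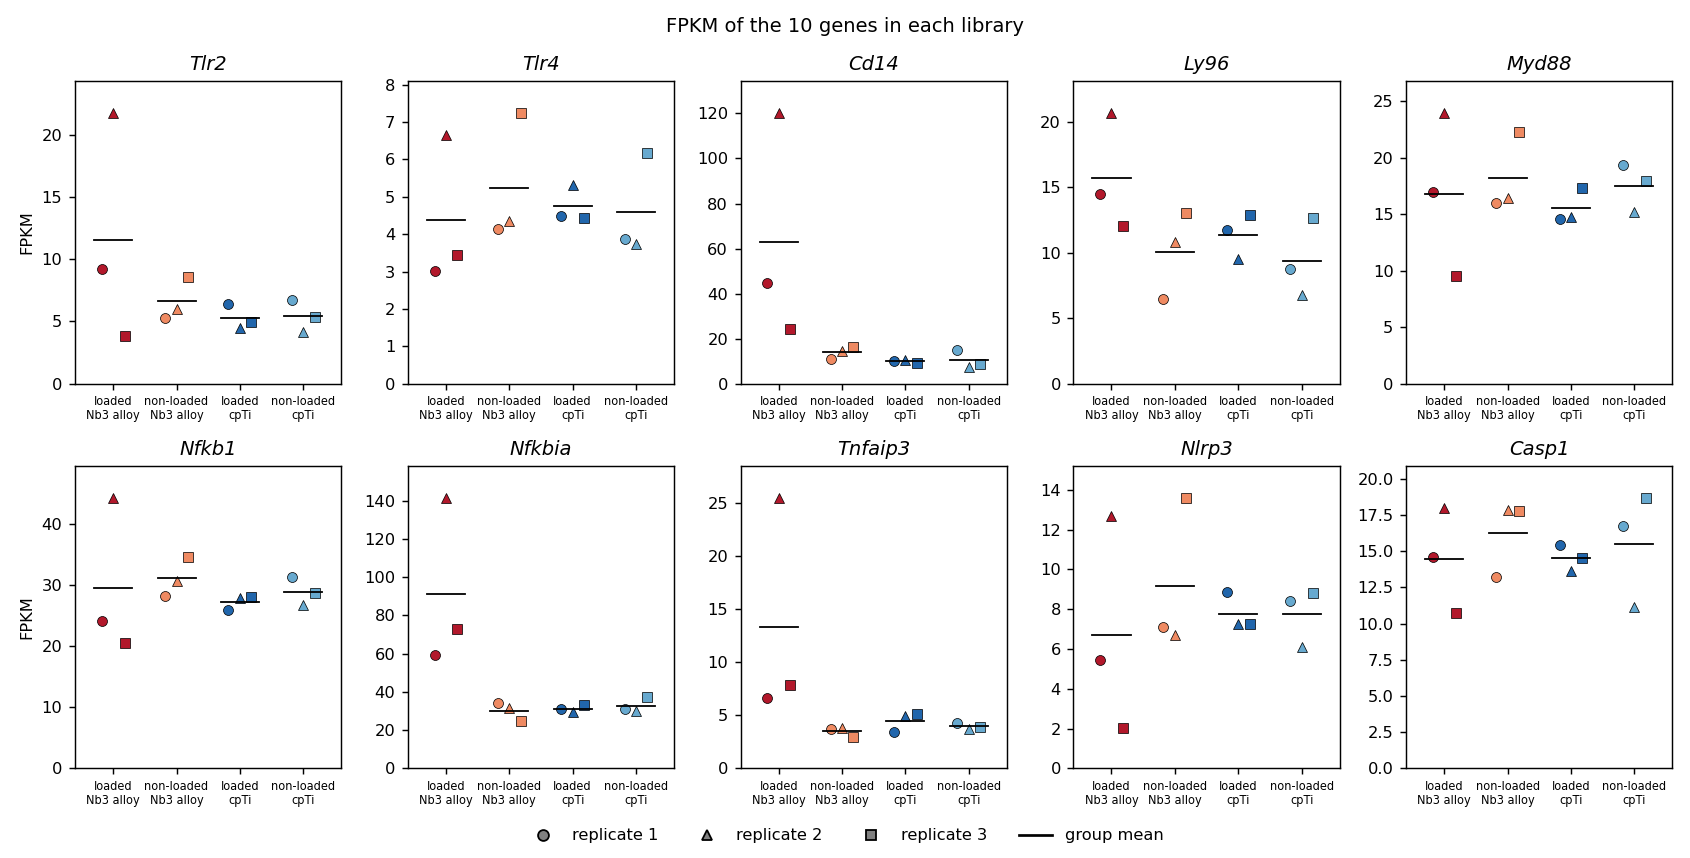
FPKM of the 10 genes (vertical axes, each from 0) in every library of the 4 groups, with marker shapes for replicates and a bar at the group mean. The 3 loaded Nb3-alloy libraries lie above all others for Cd14, Nfkbia and Tnfaip3, and replicate 2 of that group is its highest library in all 10 panels.

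Among the receptors, Cd14 differed most. It lies on chromosome 18 from 28335340 to 28337261 in the deposited annotation, whose build is not given in the sources used here. Cd14 stood at 44.6, 119.98 and 24.1 FPKM in loaded Nb3-alloy replicates 1, 2 and 3, against 10.8, 14.6 and 16.2 FPKM in non-loaded Nb3 alloy. The loaded cpTi libraries had 9.92, 10.5 and 9.27 FPKM and the non-loaded cpTi libraries 15.2, 7.36 and 8.88 FPKM. All loaded Nb3-alloy values thus lay above the other 9 libraries, but they spread nearly 5-fold among themselves, replicate 2 being 4.98 times replicate 3. The loading difference beside Nb3 alloy was 1.81 on the log2 scale (SE 0.45, adjusted p = 0.00742, limma). The means ran in the order loaded Nb3 alloy, non-loaded Nb3 alloy, non-loaded cpTi and loaded cpTi, and each of the last 3 overlapped its neighbour in that order.

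Tlr2 followed no common direction in the loaded Nb3-alloy libraries. It stood at 9.20, 21.7 and 3.83 FPKM there, against 5.32, 5.97 and 8.58 FPKM in non-loaded Nb3 alloy. Replicate 2 was the highest and replicate 3 the lowest of all 12 libraries, so the groups overlapped. In loaded cpTi Tlr2 had 6.41, 4.48 and 4.95 FPKM, and in non-loaded cpTi 6.76, 4.14 and 5.33 FPKM. The loading difference beside Nb3 alloy was 0.47, with a 95% interval of -0.49 to 1.43 (adjusted p = 0.405, limma). It came to 1.02 (adjusted p = 0.0273) without loaded Nb3-alloy replicate 3 and to -0.10 (adjusted p = 0.822) without replicate 2.

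Tlr4 stood at 3.01, 6.64 and 3.45 FPKM in loaded Nb3 alloy, against 4.14, 4.34 and 7.23 FPKM in non-loaded Nb3 alloy. Its values in loaded cpTi were 4.48, 5.32 and 4.43 FPKM and in non-loaded cpTi 3.86, 3.73 and 6.16 FPKM. All 4 groups overlapped, and the loading difference beside Nb3 alloy was -0.24 (95% interval -0.84 to 0.35, adjusted p = 0.490). Ly96, which encodes the lipopolysaccharide-binding partner of TLR4, had 14.5, 20.6 and 12.03 FPKM in loaded Nb3 alloy, against 6.43, 10.8 and 13.05 FPKM in non-loaded Nb3 alloy. Loaded cpTi gave 11.7, 9.53 and 12.9 FPKM for Ly96 and non-loaded cpTi 8.75, 6.78 and 12.7 FPKM. Its lowest loaded Nb3-alloy library lay below the highest non-loaded one, and the difference of 0.61 did not pass the test (95% interval -0.00011 to 1.22, adjusted p = 0.0942). The receptor genes thus split, with Cd14 called and Tlr2, Tlr4 and Ly96 not.

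The adaptor gene Myd88 stood at 16.97, 23.9 and 9.497 FPKM in loaded Nb3 alloy, against 15.99, 16.4 and 22.2 FPKM in non-loaded Nb3 alloy. Loaded cpTi had 14.6, 14.8 and 17.3 FPKM and non-loaded cpTi 19.4, 15.2 and 17.95 FPKM. The highest and the lowest Myd88 value of the series were both in loaded Nb3 alloy. The loading difference beside this alloy was -0.18 (95% interval -0.76 to 0.39, adjusted p = 0.592). Nfkb1, the gene of an NF-kappaB subunit precursor, had a like pattern, with 24.1, 44.3 and 20.4 FPKM in loaded Nb3 alloy against 28.1, 30.6 and 34.6 FPKM in non-loaded Nb3 alloy. Its cpTi values lay between 25.9 and 28.1 FPKM under loading and between 26.8 and 31.3 FPKM without it. Both lower loaded Nb3-alloy libraries were below every other library, and replicate 2 was above every other library. The Nfkb1 difference of -0.14 was not called (95% interval -0.64 to 0.35, adjusted p = 0.629). Without replicate 2 of loaded Nb3 alloy it was -0.46 and was called (adjusted p = 0.0147, limma), so the absence of a call rests on 1 library.

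Both inhibitor genes were called. Nfkbia lies on chromosome 6 from 72858712 to 72861941 in the deposited annotation. It stood at 59.2, 141.4 and 72.8 FPKM in loaded Nb3 alloy, against 34.2, 31.7 and 24.6 FPKM in non-loaded Nb3 alloy. Loaded cpTi libraries had 31.0, 29.2 and 33.1 FPKM and non-loaded cpTi libraries 31.1, 29.7 and 37.5 FPKM. The 3 loaded Nb3-alloy libraries were the 3 highest of the series and the other 9 lay within 24.6 to 37.5 FPKM, so the means of those 3 groups did not differ beyond their spread. The loading difference beside Nb3 alloy was 1.47 (SE 0.26, adjusted p = 0.00105, limma), the smallest adjusted p of the 10 genes.

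Tnfaip3, which encodes the ubiquitin-editing enzyme A20, lies on chromosome 1 from 13709206 to 13725282 in the deposited annotation. It stood at 6.64, 25.5 and 7.84 FPKM in loaded Nb3 alloy, against 3.68, 3.77 and 2.97 FPKM in non-loaded Nb3 alloy. Loaded cpTi gave 3.41, 4.97 and 5.10 FPKM and non-loaded cpTi 4.31, 3.70 and 3.88 FPKM. Here too all 3 loaded Nb3-alloy libraries lay above the other 9, with replicate 2 far above its own group. The loading difference beside Nb3 alloy was 1.45 (SE 0.37, adjusted p = 0.00842), and it was 0.88 without replicate 2 and still called (largest adjusted p of 18 alternatives 0.0453).

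The inflammasome genes Nlrp3 and Casp1 were not called. Nlrp3, the sensor, stood at 5.45, 12.7 and 2.02 FPKM in loaded Nb3 alloy, against 7.13, 6.71 and 13.6 FPKM in non-loaded Nb3 alloy. Its loaded cpTi values were 8.86, 7.23 and 7.24 FPKM and its non-loaded cpTi values 8.43, 6.12 and 8.798 FPKM. In loaded Nb3 alloy, replicates 1 and 3 were the lowest of the series, while replicate 2 exceeded all but 1 library. The difference was -0.59 (95% interval -1.57 to 0.38, adjusted p = 0.299), and without replicate 2 it was -1.14 and was called (adjusted p = 0.0199, limma). Casp1, the gene of the protease that the inflammasome activates, had 14.6, 18.0 and 10.7 FPKM in loaded Nb3 alloy, against 13.2, 17.9 and 17.8 FPKM in non-loaded Nb3 alloy. In loaded cpTi it had 15.5, 13.7 and 14.5 FPKM and in non-loaded cpTi 16.8, 11.1 and 18.7 FPKM. The 4 groups overlapped, and the Casp1 difference was -0.18 (95% interval -0.65 to 0.29, adjusted p = 0.524).

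Loaded Nb3-alloy replicate 2 was the highest library of its group for all 10 genes, and the highest of the 12 libraries for 7 of them, all but Tlr4, Nlrp3 and Casp1. Replicate 3 was the lowest of its group for 7 genes and replicate 1 for the other 3, Tlr4, Nfkbia and Tnfaip3. The ratio of replicate 2 to replicate 3 was 6.29 for Nlrp3, 5.67 for Tlr2 and 4.98 for Cd14, but 1.68 for Casp1 and 1.71 for Ly96. Set against the mean of the non-loaded Nb3-alloy libraries, the median of the 10 genes was 0.18 in replicate 1, 0.76 in replicate 2 and -0.50 in replicate 3 on the log2 scale. Within the group, Nfkbia lay 0.96, 2.20 and 1.26 above that mean in replicates 1, 2 and 3, and Nlrp3 lay at -0.59, 0.50 and -1.68. Replicate 2 also held the largest mitochondrial share. Its summed level of skeletal muscle markers was the highest (707 FPKM, against 156 in replicate 1 and 6.07 in replicate 3). So was that of epithelial markers (62.0 FPKM, against 3.53 and 9.92 in replicates 1 and 3). Within the group, replicate 2 had the lowest sums of osteoblast and osteocyte markers (6092 against 14953 and 16965 FPKM) and osteoclast markers (925 against 4441 and 2880 FPKM). The part of these traits in the result was not tested.

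**Figure D2:**
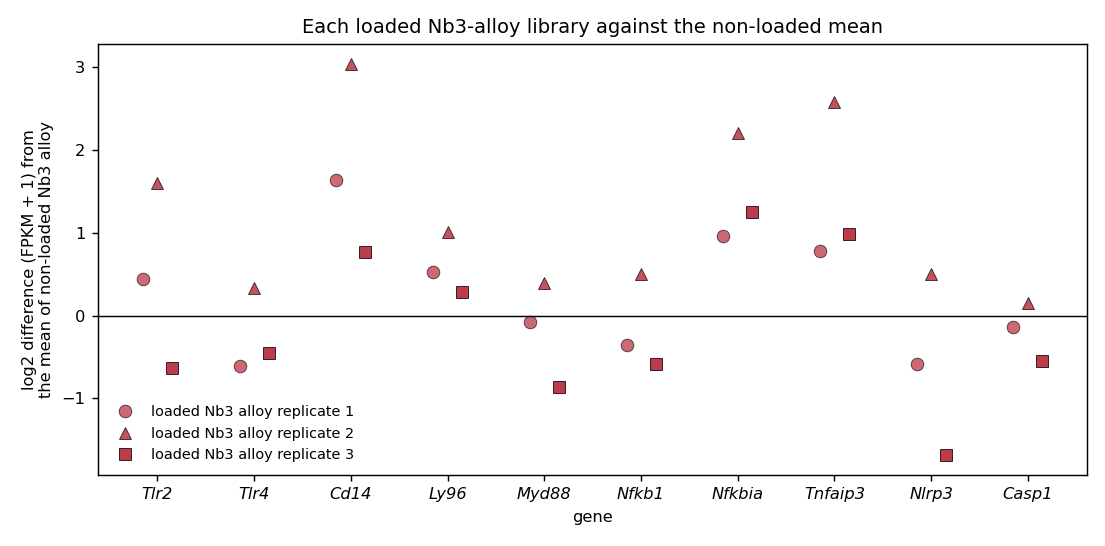
Difference of each loaded Nb3-alloy library from the mean of the 3 non-loaded Nb3-alloy libraries, on the log2(FPKM + 1) scale, for the 10 genes. All 3 libraries lie above 0 for Cd14, Ly96, Nfkbia and Tnfaip3, and replicate 2 is the highest point of every gene.

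Beside cpTi, limma called none of the 10 genes between loaded and non-loaded libraries, against 0.00655% of all tested genes (1 of 15268, while 1062 had an unadjusted p under 0.05). Every gene overlapped between loaded and non-loaded cpTi. Differences ran from -0.16 for Myd88 to 0.28 for Ly96, and the smallest adjusted p was 0.869. For the 3 genes called beside Nb3 alloy they were -0.02 for Cd14 (95% interval -1.02 to 0.99), -0.07 for Nfkbia (-0.65 to 0.52) and 0.13 for Tnfaip3 (-0.68 to 0.95). Intervals of this width do not show that loading had no effect. They also take in the spread of all 12 libraries, which was unequal. For Cd14 the SD was 50.5 FPKM in loaded Nb3 alloy and 0.611 FPKM in loaded cpTi.

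The test of the difference between both loading effects, the interaction, called 1 of the 10 genes, Nfkbia, against 20.2% of all tested genes (8.42% higher). For Nfkbia the loading effect beside Nb3 alloy exceeded that beside cpTi by 1.54 (SE 0.37, adjusted p = 0.0158, limma). For Cd14 the excess was 1.83 (SE 0.64, adjusted p = 0.0685) and for Tnfaip3 1.31 (SE 0.53, adjusted p = 0.104), so neither is shown to respond differently beside the 2 materials. Both depended on single libraries. Without loaded Nb3-alloy replicate 3 the Cd14 interaction was 2.35 and was called (adjusted p = 0.0114), and the Tnfaip3 interaction was called without replicate 1 (1.64, adjusted p = 0.0446) and without replicate 2 (0.75, adjusted p = 0.0476). The other 7 genes lay between -0.60 and 0.49 and were not called.

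Under loading, bone beside Nb3 alloy had more RNA of the same 3 genes than bone beside cpTi. This comparison shares its loaded Nb3-alloy libraries with the loading comparison above, so it is not a separate observation. Cd14 was higher by 2.25 (SE 0.45, adjusted p = 0.00362), Nfkbia by 1.42 (SE 0.26, adjusted p = 0.00227) and Tnfaip3 by 1.16 (SE 0.37, adjusted p = 0.0334, all limma). These 3 of the 10 were called, against 33.6% of all tested genes (14.7% higher). The Tnfaip3 call was lost when any 1 loaded cpTi replicate was left out (1.01 to 1.24, adjusted p up to 0.114) and in a fit of the compared groups alone (1.16, adjusted p = 0.118). Tlr2 was 0.74 higher without passing the test (95% interval -0.22 to 1.70, adjusted p = 0.216), and without loaded Nb3-alloy replicate 3 it was called at 1.29 (adjusted p = 0.0136). Ly96 differed by 0.41, Nlrp3 by -0.44, Tlr4 by -0.15, and Myd88, Nfkb1 and Casp1 by 0.02, 0.04 and -0.03, none called. Without loaded Nb3-alloy replicate 2, Nlrp3 was called lower (-0.99, adjusted p = 0.0492).

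Without loading, none of the 10 genes was called between Nb3 alloy and cpTi, as none of all tested genes was (0%, while 470 had an unadjusted p under 0.05). All 10 overlapped between the groups, with differences between -0.15 for Tnfaip3 and 0.42 for Cd14 (95% interval -0.58 to 1.42), and every adjusted p was 1 in limma.

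**Figure D3:**
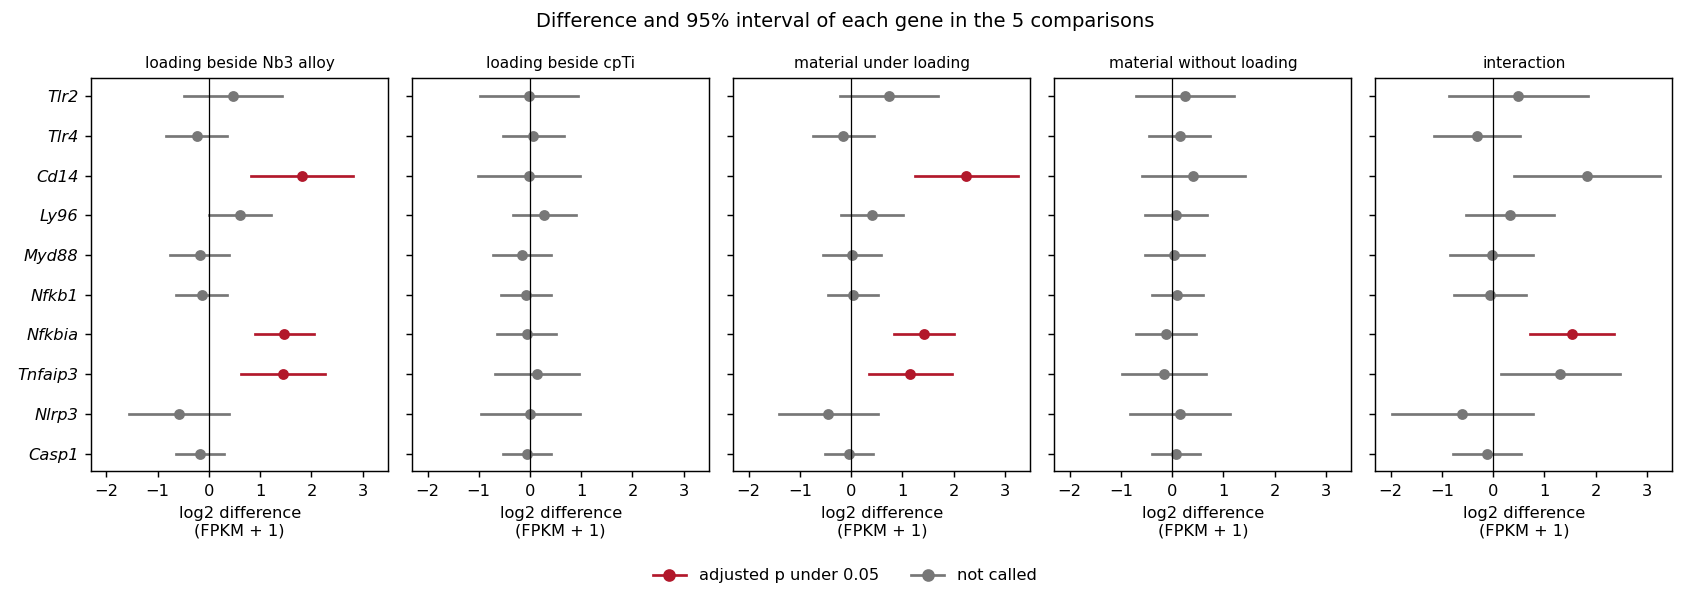
Difference (points) and 95% interval (lines) of each gene in the 5 comparisons, on the log2(FPKM + 1) scale, loaded minus non-loaded or Nb3 alloy minus cpTi, with the interaction at the right. Red marks an adjusted p under 0.05: Cd14, Nfkbia and Tnfaip3 in the 2 comparisons with loaded Nb3 alloy, and Nfkbia in the interaction.

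Because bone holds marrow, the genes were also set against Ptprc, the gene of the leukocyte surface protein CD45. Ptprc itself was lower in loaded Nb3 alloy, at 9.55 ± 5.38 FPKM against 28.8 ± 6.26 FPKM in non-loaded Nb3 alloy (SD, n = 3 each; difference -1.60, adjusted p = 0.00131, limma). It averaged 24.3 ± 1.61 FPKM in loaded cpTi and 26.8 ± 3.36 FPKM in non-loaded cpTi. Relative to Ptprc, all 10 genes were higher in every loaded than in every non-loaded Nb3-alloy library. The ratio for Cd14 was 6.01 ± 1.53 against 0.497 ± 0.144, a log2 difference of 3.61. For Tlr2 it was 1.10 ± 0.316 against 0.232 ± 0.0437 (2.22), and for Nlrp3 0.631 ± 0.209 against 0.312 ± 0.0730 (0.99), the smallest difference of the 10. An exact two-sided permutation test gave p = 0.1 for each, the smallest that 3 libraries against 3 can give, so none of these ratio differences can pass 0.05. A ratio of this kind moves with Ptprc as well as with the gene. Ptprc differed by -1.60, while the median difference over all tested genes was -0.02. A gene at that median would thus also have a higher ratio. The ratio differences of Tlr4 (1.42), Myd88 (1.52), Nfkb1 (1.57), Casp1 (1.53) and Nlrp3 (0.99) were no larger than the fall of Ptprc. The share of all tested genes with such a split was not counted.

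**Figure D4:**
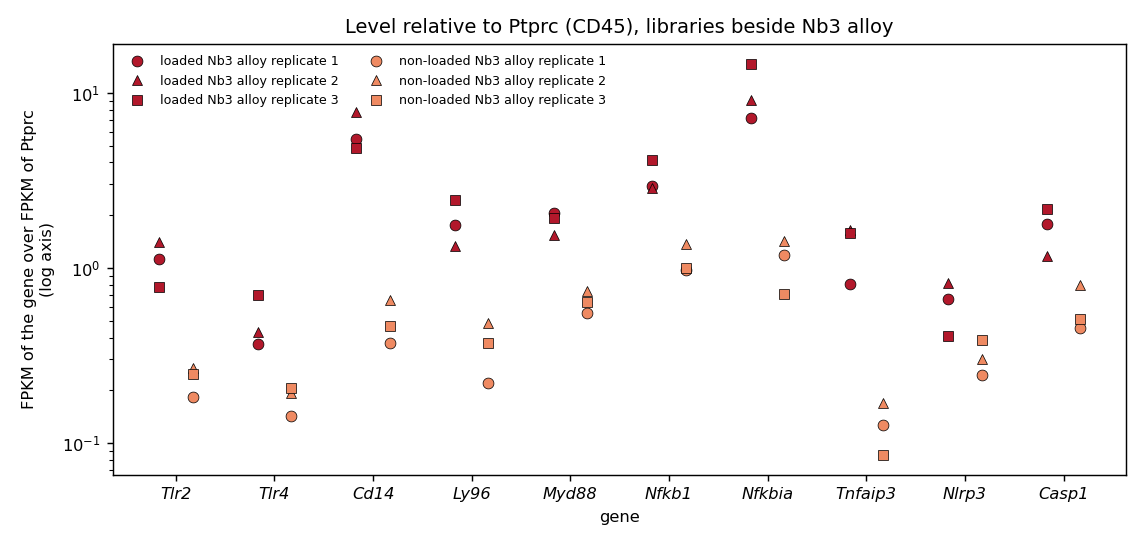
FPKM of each gene divided by FPKM of Ptprc in the same library (log axis), for the 3 loaded and the 3 non-loaded Nb3-alloy libraries. Every loaded point lies above every non-loaded point of its gene, by the least for Nlrp3, whose loaded replicate 3 stands at 0.408 against 0.390 in the highest non-loaded library.

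Markers of red cells, neutrophils, B cells and platelets, which marrow holds, were lower in loaded Nb3 alloy in the same comparison. Counts of markers below stand against 20.7% of all tested genes called higher and 25.2% called lower. All 6 tested erythroid markers were lower (median -6.10), with summed levels of 5.28 to 17.0 FPKM in loaded Nb3 alloy against 1117 to 1612 FPKM in non-loaded Nb3 alloy. All 7 tested neutrophil precursor markers were lower (median -6.73), with sums of 10.9 to 91.0 against 3364 to 7548 FPKM in the same groups, and Ltf was at 0 in 9 of the 12 libraries. These lists did not overlap between the groups. All 7 B lineage markers were lower (median -2.50), with sums of 29.8 to 67.2 against 282.6 to 528 FPKM, and 4 of 5 platelet markers were lower (median -3.52), with sums of 43.7 to 152 against 208 to 526 FPKM. Of 13 tested monocyte and macrophage markers, 3 were higher and 3 lower (median 0.16), which is near the shares of all tested genes. Their summed level ranged over 432 to 775 FPKM in loaded Nb3 alloy against 512 to 665 FPKM in non-loaded Nb3 alloy. Within that list F13a1 (-3.10), Cd163 (-2.31) and Ccr2 (-2.02) were lower, and Cd68 (0.73) and Mertk (0.54) were among those higher. Marco, 1 of the 14 on that list, was at 0 in 11 libraries. Of 7 tested mature neutrophil markers, 6 were lower and 0 higher (median -3.89), with sums of 69.3 to 434 against 4701 to 14613 FPKM, and Cxcr1 and Fpr2 were at 0 in 7 and 3 of the 12 libraries. Of 6 tested dendritic cell markers, 3 were higher and 0 lower (median 0.16), with sums of 25.0 to 47.03 against 26.1 to 31.9 FPKM. T and NK cell markers gave 3 higher and 1 lower of 6 (median 0.52). Their sums were lower, at 40.2 to 59.7 FPKM in loaded against 89.0 to 180 FPKM in non-loaded Nb3 alloy. The lower marker was Nkg7, with means of 2.70 against 113.8 FPKM. Osteoclast markers gave 3 higher and 0 lower of 7 (median 1.18), with sums of 925 to 4441 against 538 to 1100 FPKM. Macrophage and dendritic cell sums overlapped between these groups, and sums of both neutrophil lists did not. Fibroblast markers were higher in 5 of 7 (median 2.41), with sums of 2665 to 4277 against 432 to 593 FPKM. Endothelial markers were higher in 5 of 6 (median 1.74), with sums of 233 to 438 against 80.03 to 122 FPKM, and no fibroblast or endothelial marker was at 0. Within loaded Nb3 alloy, the macrophage marker median was 0.37, 0.35 and -0.41 in replicates 1, 2 and 3, and that of mature neutrophil markers -2.75, -1.95 and -3.72. The part of these cell types in the differences of the 10 genes was not tested.

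The rest of the pathway was read from 7 lists, on which 87 genes were tested. Beside Nb3 alloy, loading came with 32 of them higher and 20 lower, against 20.7% and 25.2% of all tested genes, and with a median of 0.25 against -0.02 over all tested genes. The lists are described by their counts, and differences between lists were not tested. Csf3, Cxcl2, Tnf, Tnip3 and Tlr12 would not have passed the filter without the loaded Nb3-alloy libraries. Their higher level there was a condition of being tested, so their direction gives no support. The counts and medians of every comparison include them. Beside cpTi none of the 87 was called in limma, with a smallest adjusted p of 0.644.

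Among 18 tested NF-kappaB target genes, 14 were higher and 1 was lower, against 20.7% and 25.2% of all tested genes. Their median was 1.45. Csf3, Cxcl2 and Tnf are among the 18 and were tested only because of their level in loaded Nb3 alloy. Sele, the gene of the endothelial adhesion molecule E-selectin, stood at 19.7, 30.1 and 8.28 FPKM in loaded Nb3 alloy, against 0.611, 1.121 and 1.07 FPKM in non-loaded Nb3 alloy (3.24, adjusted p = 4.41e-05). Ccl2, a chemokine for monocytes, stood at 45.5, 38.7 and 9.495 against 1.16, 2.61 and 1.73 FPKM in the same groups (3.28, adjusted p = 0.000346). The highest library was replicate 2 for Sele and replicate 1 for Ccl2, and for both genes all 3 loaded libraries lay above the non-loaded ones. Icam1, which encodes a leukocyte adhesion ligand, was higher by 1.81 (adjusted p = 0.00115) and the chemokine gene Ccl3 by 3.56 (adjusted p = 0.00127). Csf3, the gene of the granulocyte growth factor G-CSF, had 2.53, 1.43 and 1.62 FPKM in loaded Nb3 alloy and was listed at 0 in all 3 non-loaded Nb3-alloy libraries. Vcam1, another adhesion molecule, was the 1 target that was lower (-1.01, adjusted p = 0.0259).

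The 13 tested genes of the inhibitor list, other than Nfkbia and Tnfaip3, gave 5 higher and 1 lower, with a median of 0.37. The shares of all tested genes were 20.7% higher and 25.2% lower. The list takes in nuclear IkappaB genes, so its counts are not counts of inhibitors alone. Nfkbiz, which encodes an atypical nuclear IkappaB protein, had 23.3, 38.6 and 10.5 FPKM in loaded Nb3 alloy against 4.34, 4.99 and 4.69 FPKM in non-loaded Nb3 alloy (1.97, adjusted p = 0.000778). Bcl3, a related nuclear IkappaB gene, was higher by 1.88 (adjusted p = 0.0105). The A20-binding partners Tnip1 and Tnip3 were higher by 0.94 and 1.52 (adjusted p = 0.00952 and 0.0180), and the deubiquitinase gene Cyld was lower (-0.44, adjusted p = 0.0285). Tnip3 reached 1 FPKM only in loaded Nb3 alloy, so the filter had set its direction. Of 8 subunit and IKK genes, Nfkb2 (1.18, adjusted p = 0.00696) and Relb (1.05, adjusted p = 0.0313), the pair of the non-canonical pathway, were higher. Ikbkb (-0.76, adjusted p = 0.000547) and Chuk (-0.37, adjusted p = 0.0249), which encode the catalytic IKK kinases, were lower. Counts on this subunit list are near the shares of all tested genes, so they are not particular to it.

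Upstream, 0 of 15 adaptors and kinases were higher and 4 were lower, with a median of 0.09 and 9 of 15 above 0. A share of 4 in 15 is close to the 25.2% of all tested genes that were lower, so it is not particular to this list. Traf6, the ubiquitin ligase that MyD88 signalling uses, had 2.69, 3.98 and 4.72 FPKM in loaded Nb3 alloy against 8.91, 8.07 and 8.99 FPKM in non-loaded Nb3 alloy (-1.03, adjusted p = 0.00138). Tab2 (-0.73), Tirap (-0.59) and Map3k7 (-0.33), which act beside it, were the other 3. Of 8 cofactors of Toll-like receptors, 1 was higher and 2 were lower, again near the 20.7% and 25.2% of all tested genes. Lbp, the lipopolysaccharide-binding protein that loads CD14, stood at 267.6, 797.1 and 93.2 against 62.0, 52.9 and 96.0 FPKM in the same groups (1.98, adjusted p = 0.0168), and its loaded replicate 3 lay below the highest non-loaded library. Trem1 (-1.72) and Cd180 (-0.77) were lower. Of the 6 other Toll-like receptors tested, Tlr3 (0.83) and Tlr12 (1.04) were higher and Tlr5 (-1.43) and Tlr9 (-0.79) were lower. The shares of all tested genes were again 20.7% and 25.2%. Tlr12 reached 1 FPKM only in loaded Nb3 alloy, so the filter had set its direction.

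The inflammasome list beyond Nlrp3 and Casp1 split evenly, with 8 of 19 higher, 8 lower and a median of 0.25. Of all tested genes 20.7% were higher and 25.2% lower. Il1b, the gene of the cytokine that caspase-1 matures, had 36.7, 205.8 and 41.7 FPKM in loaded Nb3 alloy against 5.45, 10.5 and 11.6 FPKM in non-loaded Nb3 alloy (2.83, adjusted p = 0.00141). Ninj1, whose product ruptures the membrane of dying cells, had 161.7, 226.3 and 101.99 against 58.2, 60.2 and 57.1 FPKM (1.39, adjusted p = 0.000743). For both genes all 3 loaded libraries lay above the non-loaded ones, with replicate 2 highest. Il18bp, the gene of an interleukin 18 inhibitor, was higher by 1.35 (adjusted p = 0.00131). Nlrp12 (-1.92, adjusted p = 0.00106) and Casp8 (-0.98, adjusted p = 0.00181) were lower. Pycard, the gene of the inflammasome adaptor ASC, had 20.3, 19.6 and 12.5 against 20.6, 33.1 and 34.3 FPKM (-0.71, adjusted p = 0.0273), and Aim2, a DNA sensor, was lower as well (-1.22, adjusted p = 0.0243). Pycard, Aim2 and Vcam1 were singled out after their values were seen.

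**Figure D5:**
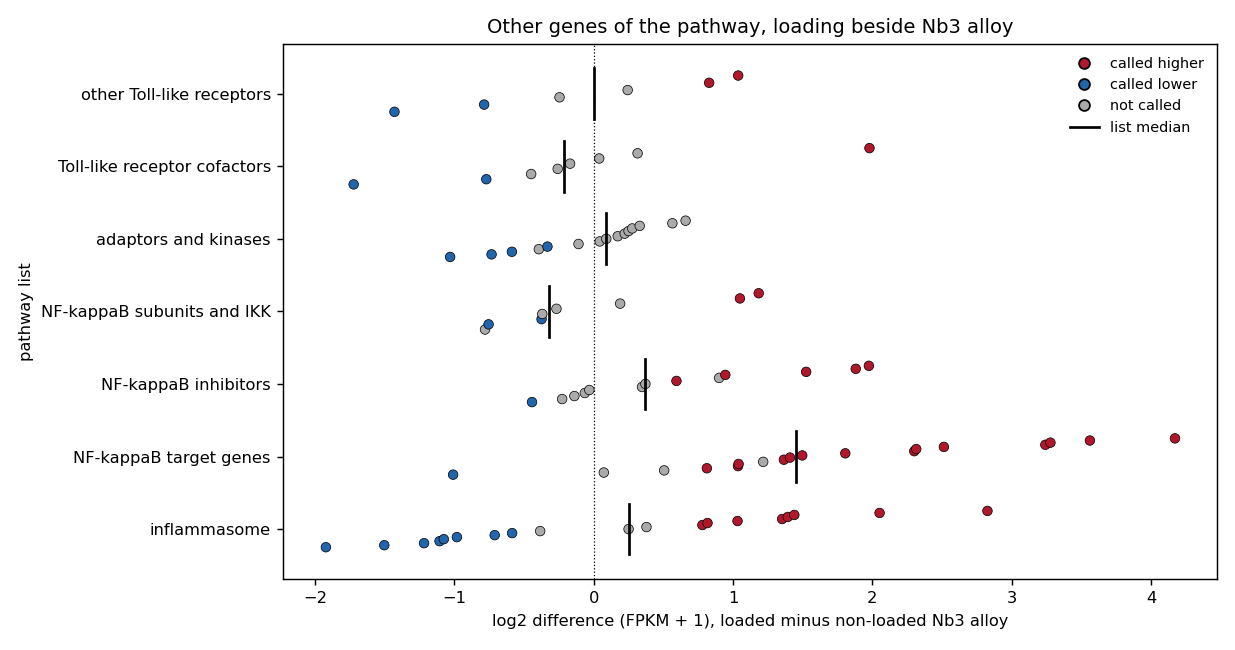
Loaded minus non-loaded Nb3 alloy, on the log2(FPKM + 1) scale, for the 87 tested genes of 7 pathway lists (points) with each list's median (bars). The target gene list has 14 of 18 points called higher (red), and adaptors and kinases have 4 of 15 called lower (blue). Csf3, Cxcl2, Tnf, Tnip3 and Tlr12 were tested only because of their level in loaded Nb3 alloy.

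In the material comparison under loading, which shares the loaded Nb3-alloy libraries, 34 of the 87 genes were higher and 8 lower, against 14.7% and 18.9% of all tested genes. NF-kappaB targets gave 13 higher and 1 lower of 18 (median 1.53) and the inhibitor list 7 higher and 0 lower of 13 (median 0.63). Sele was higher by 3.09 (adjusted p = 9.75e-05), Cxcl1, a neutrophil chemokine gene, by 2.88 (adjusted p = 0.000717) and Nfkbiz by 1.84 (adjusted p = 0.00207). Among adaptors and kinases, Irak2 (0.80) and Irak3 (0.70) were higher, and Tab2 (-0.55) and Traf6 (-0.72) lower. The inflammasome list had 7 higher and 2 lower of 19, led by Il1b (2.92, adjusted p = 0.00202), with Nlrp12 (-1.74) and Casp8 (-0.73) lower. Without loading, none of the 87 was called between the materials in limma, and every adjusted p was 1.

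The interaction called 13 of the 87 genes higher and 6 lower, against 8.42% and 11.8% of all tested genes. Beside Nfkbia, the higher ones include 1 gene of the inhibitor list, Nfkbiz (2.00, adjusted p = 0.0146), and 1 subunit gene, Nfkb2 (1.35, adjusted p = 0.0420). Of the 18 targets, 7 were higher, among them Sele (3.21), Cxcl1 (3.15) and Ccl2 (3.15), and Vcam1 was lower (-1.52). The 7 also include Csf3 and Cxcl2, which were at or near 0 outside loaded Nb3 alloy. Both passed the filter only through that group, so their direction was set in advance. Cxcl1 and Cxcl2 both encode chemokines for neutrophils. Il1b (2.80, adjusted p = 0.0243), Il18bp (1.21), Nek7 (0.74) and Ninj1 (1.04) were higher on the inflammasome list and Nlrp12 was lower (-1.82). Ikbkb (-0.57), Tab2 (-0.67), Traf6 (-0.90) and Tlr9 (-0.96) were the remaining lower ones.

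The genes whose profile over the 12 libraries lay nearest to each of the 10 were found by the root mean square difference of log2(FPKM + 1), after centring each gene on its own mean. The search took in only tested genes with a mean of at least 1 FPKM and a symbol that is not a placeholder. Genes outside that set may lie nearer. Nfkbia lay nearest to Inhbb (0.17) and Myct1 (0.18), against its own spread of 0.68, and its nearest neighbour among the 10 was Tnfaip3 (0.23). Tnfaip3 lay nearest to Plin2 and Gpr176 (0.20 each, own spread 0.71). Cd14 lay nearest to Sod2 (0.31) and Cebpb (0.33), with an own spread of 1.06. Sod2 and Cebpb encode the mitochondrial superoxide dismutase and a transcription factor of inflammatory genes. The profile of Nlrp3 lay nearest to Cd300a and Fcgr1a (0.14 each, own spread 0.55), and Tlr2 lay nearest to Fcgr2a and Tes (0.21 each, own spread 0.58). Fcgr1a and Fcgr2a encode antibody receptors of myeloid cells. For Myd88 the nearest were Efhd2 (0.11) and Ifi35 (0.12), for Nfkb1 Ccdc71l (0.09) and Pik3cb (0.13), and Myd88 and Nfkb1 were each other's nearest of the 10 (0.14). Casp1 lay nearest to Stx7 (0.10) and Otulin (0.11), Ly96 to Uqcrq (0.14) and Prdx1 (0.15), and Tlr4 to Ppidl1 (0.16) and Vps35 (0.18). These distances share the libraries that stand apart, and describe likeness of level only.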

How the data were processed

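Per the labels' protocols, RNA was isolated with TRIzol, and the 12 libraries of polyadenylated RNA were prepared with NEBNext Ultra reagents. The authors deposited FPKM per gene. The submitters' processing notes name DESeq2 1.20.0, featureCounts 1.5.0-p3, HISAT2 2.0.5, fastp and CASAVA 1.8 without their roles. Genome build, gene annotation and strandedness of counting were not given in the sources used here. FPKM times gene length came in whole reads for 100% of values within 0.01 read, and the depth the authors scaled by followed a median-of-ratios size factor (ratio 0.992 to 1.02), not the total.

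Tests used limma 3.58.1 (R 4.3.3) on log2(FPKM + 1), with all 12 libraries, 1 mean per group, 8 residual degrees of freedom, trended and robust moderation, and Benjamini-Hochberg adjustment over the 15268 genes at 1 FPKM or more in at least 3 libraries (18533 were not tested). The procedure was tested on simulated data with the same dispersion in every group and few changed genes, unlike these data. Figures used Python 3.11.15 and matplotlib 3.10.9. The 10 genes and the lists were chosen with earlier results of these data known. All 10 genes are named throughout. On each pathway list, called genes are named in order of adjusted p, up to 5 per comparison, with any others so marked. The listed genes Tlr7, Tlr8, Tlr13, Cd36, Ticam1, Irak1, Tab3, Ikbkg, Saa3 and Naip6 were not analysed here. Ptprc ratios were compared with an exact permutation test. Alternatives were other filters, pseudocounts, scalings and fits, a replicate block, and each library left out.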

Additional observations from a re-analysis of the deposited data

Results flagged for a closer look

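Nfkbia, the gene of the NF-kappaB inhibitor IkappaB alpha, was flagged because its response to loading differed between the 2 implant materials by a test of that difference. The loading effect beside Nb3 alloy exceeded that beside cpTi by 1.54 on the log2 scale (SE 0.37, 95% interval 0.72 to 2.36, adjusted p = 0.0158, limma). It was 1.47 beside Nb3 alloy, where all 3 loaded libraries lay above all 3 non-loaded ones, and -0.07 beside cpTi, where the groups overlapped. With each library left out in turn the difference stayed between 1.17 and 1.79.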

How the results depend on the processing

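Beside Nb3 alloy, the loading calls of Cd14, Nfkbia and Tnfaip3 held under all 18 alternatives each (differences of 1.201 to 2.34, 1.11 to 1.73 and 0.88 to 1.78). Under loading, Nb3 alloy against cpTi kept the calls of Cd14 (1.64 to 2.77) and Nfkbia (1.05 to 1.68) in all 18, and that of Tnfaip3 in 13 of 18 (0.60 to 1.49); with no filter on low values the Tnfaip3 adjusted p was 0.0594. Over 590 values of the 10 genes under settings that kept every library, 581 kept their direction and side of the threshold. The directions that turned were of genes not called. Scaling to total reads gave -0.15 for Myd88 and -0.13 for Nfkb1 between the materials under loading. Scaling to nuclear reads gave -0.0036 for Nlrp3 in loading beside cpTi. Quantile normalization gave 0.0074 for Cd14 in loading beside cpTi, 0.019 for Casp1 between the materials under loading, and 0.035 for Myd88 in the interaction, where it also called Cd14 and so 2 of the 10 genes. Set against macrophage markers in place of Ptprc, Nlrp3 was lower beside loaded Nb3 alloy (-0.34). The cause was not tested for any of these.

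With each library left out, 44 of 360 values turned, none of them called. Of the 10 genes, 3 to 5 were called in loading beside Nb3 alloy, 2 to 4 between the materials under loading and 1 to 2 in the interaction. The values that turned ranged, in loading beside Nb3 alloy, over -0.10 to 1.02 for Tlr2, -0.47 to 0.15 for Myd88, -0.46 to 0.074 for Nfkb1 and -0.34 to 0.0083 for Casp1. In loading beside cpTi they ranged over -0.17 to 0.13 for Tlr2, -0.042 to 0.26 for Tlr4, -0.22 to 0.26 for Cd14, -0.13 to 0.032 for Nfkbia, -0.14 to 0.094 for Nlrp3 and -0.27 to 0.080 for Casp1. Between the materials under loading they ranged over -0.44 to 0.027 for Tlr4, -0.26 to 0.36 for Myd88, -0.28 to 0.26 for Nfkb1, -0.99 to 0.11 for Nlrp3 and -0.20 to 0.15 for Casp1. Without loading they ranged over -0.065 to 0.34 for Tlr4, -0.11 to 0.35 for Ly96, -0.10 to 0.13 for Myd88, -0.21 to 0.015 for Nfkbia, -0.14 to 0.32 for Nlrp3 and -0.13 to 0.22 for Casp1. In the interaction they ranged over -0.074 to 1.04 for Tlr2, -0.31 to 0.31 for Myd88, -0.39 to 0.15 for Nfkb1 and -0.28 to 0.092 for Casp1.

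Counts over all genes moved as follows. In loading beside cpTi the 1 call became 2 with no filter, 2 with the filter in 6 libraries, 3 with quantile normalization, and 0 with a pseudocount of 0.1, limma-voom on whole reads, the compared groups alone or the replicate block, and 0 to 4 with a library left out. Between the materials without loading it was 1 with no filter and 0 to 4 with a library left out, and the interaction gave 1986 to 3159. An absolute log2 difference of at least 1 left 3475 of 6996 calls in loading beside Nb3 alloy and 2275 of 5123 between the materials under loading. Loading beside Nb3 alloy called 3156 genes higher and 3840 lower as deposited, 2266 and 4667 after scaling to total reads (all-gene median -0.17), and 3573 and 3337 after quantile normalization. Under loading, the materials gave 2239 higher and 2884 lower, 1359 and 3671 by total reads (median -0.15), and 2727 and 2456 by quantiles. The interaction gave 1285 higher and 1804 lower, and 844 and 2386 by total reads (median -0.18). Same-numbered libraries of different groups did not pair: their deviations correlated at -0.25 to 0.12 over 18 pairs, and the replicate block changed no call of the 10 genes (6568 calls over all genes in loading beside Nb3 alloy). Each of the 10 genes had 90 reads or more in every library, while the SD of Cd14 in loaded Nb3 alloy was 50.5 FPKM on a mean of 62.9 FPKM.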
